A study of Mus musculus with 185 samples.

Results

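Dendritic cells show T cells an antigen together with membrane ligands and enzymes that set the strength of the reply. CD40 receives help from activated T cells, CD80 and CD86 are the B7 ligands of CD28 and CTLA-4, PD-L1 and PD-L2 restrain T cells through PD-1, and ICAM-1 holds the contact. In skin, Langerhans cells (LCs) are known to raise several of these molecules as they mature and leave for the lymph node, and a programme with Socs2, Il4i1 and Cd200 has been described in mature migratory dendritic cells of many tissues. The genes described here are 10 such costimulatory, checkpoint and maturation genes, Cd40, Cd80, Cd86, Cd83, Cd274, Pdcd1lg2, Cd200, Icam1, Il4i1 and Socs2, chosen by name from the 45661 genes listed. All 10 had reads.

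The cells are epidermal LCs sorted singly from bone marrow chimeras (BMC). The hosts were B6 Cd207DTR mice of CD45.1 type, lethally irradiated and given wild-type CD45.2 bone marrow, and every one was injected with diphtheria toxin (DT), 5 ng for each gram the mouse weighed. LCs were sorted 2 months later. Host cells (label E) are embryo-derived LCs (eLCs) and carry the Cd207DTR allele, in which the DT receptor sits in the Cd207 locus, and donor cells (label M) are monocyte-derived LCs (moLCs) with an unmodified Cd207 locus. Irradiation, transplantation and DT were thus shared by both groups, while host against donor, the Cd207 allele and the CD45 type differ together with origin and cannot be told apart from it. The sort gate took lineage-negative cells positive for CD11c, CD11b, CD24, MHC class II and CD326. The labels give no age, sex or animal. Each origin therefore counts as 1 sample, no test between origins was run, and intervals cover counting error only.

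All 79 eLCs and all but 3 moLCs had at most 5% of their reads on mitochondrial genes and were kept. They had between 432614 and 4525429 reads each, with medians of 2948819 in moLCs and 2779080 in eLCs. A median of 4026 genes was read in moLCs and 4488 in eLCs. Levels are CPM, the reads of a gene in the pooled cells of an origin per 1000000 reads of any gene, and differences are the log2 ratio of moLCs over eLCs. Plates 1 and 2, which the labels name for each cell, are also given apart (67 moLCs and 29 eLCs, then 36 and 50). All 7 LC markers searched (Cd207, Epcam, H2-Aa, Cd74, Csf1r, Mfge8 and Itgax) were read in both origins, and their sum per cell ran from 11088 to 222735 CPM in moLCs (median 150181) and from 72542 to 185832 in eLCs (median 127437). Cd207 itself summed to 26237 CPM in moLCs and 2159 in eLCs, and 1 moLC lacked it. Of the other cell types, the per-cell sum of 6 keratinocyte markers was at most 686 CPM in moLCs and 95.3 in eLCs, that of 6 T cell markers at most 21.5 and 23.9, that of 5 monocyte markers at most 577 and 439, nearly all of it Lyz2, that of 4 dermal DC1 markers at most 333 and 304, and that of 4 melanocyte markers at most 45.5 and 6.24. The median of each of these sums was 0, and Krt1, Dsp, Cd3e, Trdc, Thy1, S100a8, Tlr3, Dct, Tyrp1 and Mlana had no read.

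There were 3 moLCs with LC marker sums under that of every eLC. They are named here because some values below rest on them. The cell in well B06 of plate 1 had a sum of 11088 CPM, no Cd207 read, 112 CPM of Epcam and 881 CPM of H2-Aa. The cell in well A02 of plate 1 had a sum of 70609 CPM, 42.6 CPM of Cd207 and 6690 genes read. It also held 380 reads (172 CPM) of the dermal DC1 marker Xcr1 and 26 of the monocyte marker Ccr2. Xcr1 summed to 3.77 CPM over moLCs and 5.09 CPM over eLCs. The other DC1 markers, Clec9a, Itgae and Tlr3, had no read in this cell. Its Csf1r was at 36.3 CPM, under the 858 CPM of pooled moLCs, but its Epcam, at 1077 CPM, was above their 756 CPM. Whether this cell is an LC was not tested. The cell in well G09 of plate 2 had a sum of 52565 CPM with 8818 CPM of Cd207. Well B06 held reads of 8 of the 10 genes and well A02 held reads of 9, while well G09 held reads of 2.

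Cd40, Cd86 and Cd83 were read in nearly every cell of both origins, Icam1 in just over every other cell, Cd80 and Il4i1 in a minority, and Cd274, Pdcd1lg2 and Cd200 in few. Per kilobase of merged exon and 1000000 reads (RPKM) the order in moLCs was Cd83 (2249 RPKM), Cd86 (419.9 RPKM), Cd40 (265 RPKM), Icam1 (86.4 RPKM), Il4i1 (76.4 RPKM), Cd80 (10.7 RPKM), Pdcd1lg2 (8.78 RPKM), Cd274 (3.59 RPKM), Socs2 (2.79 RPKM) and Cd200 (0.525 RPKM). The order in eLCs, from 1969 RPKM of Cd83 to 0.0912 RPKM of Cd200, was the same except that Socs2 (0.930 RPKM) stood above Cd274 (0.398 RPKM). With 1 sample an origin, no spread between samples is known for neighbours in this order. Across cells the ranges of the 2 origins overlapped for all 10 genes.

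**Figure D1:**
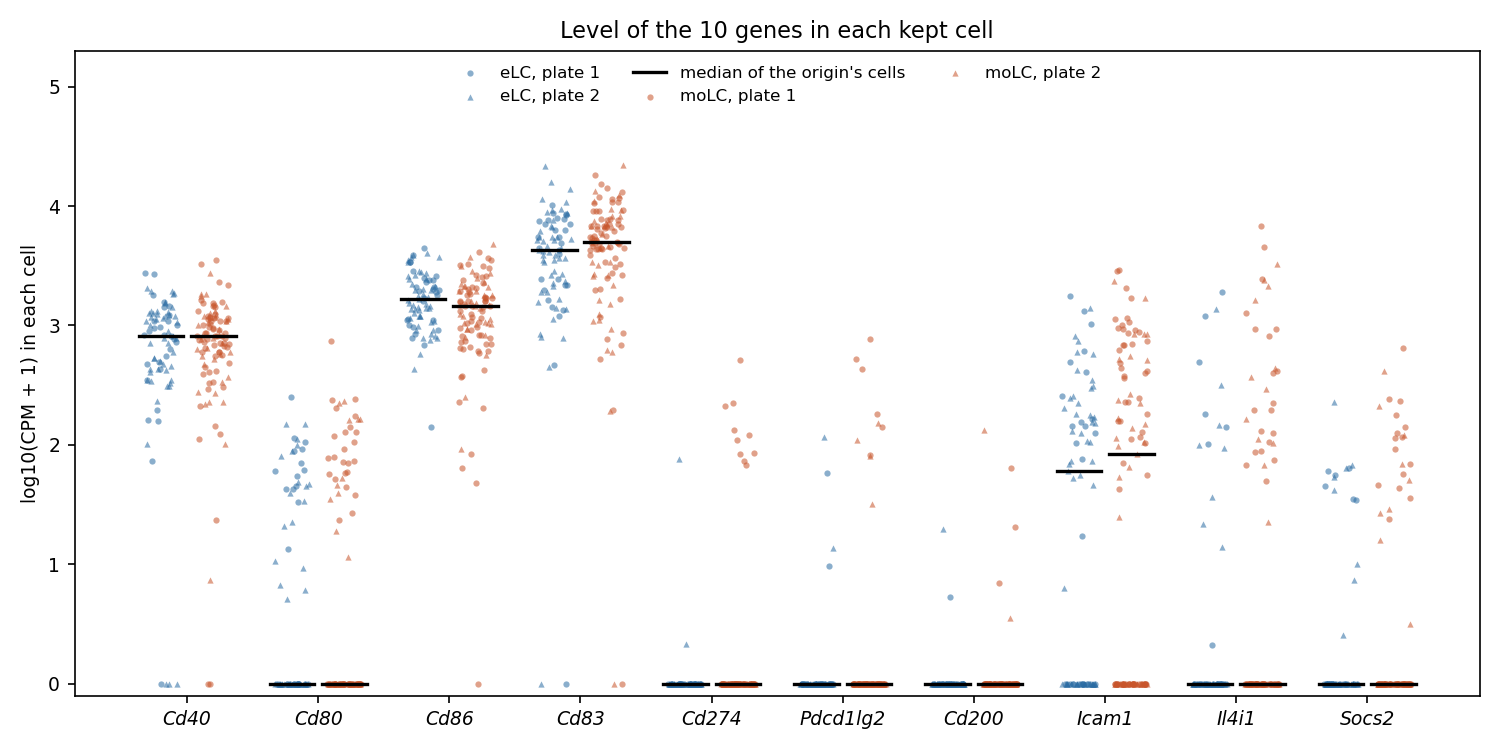
Each point is 1 kept cell, with eLCs in blue and moLCs in orange, circles for plate 1 and triangles for plate 2; the vertical axis is log10(CPM + 1) and black bars are the median of each origin's cells. Cd40, Cd86 and Cd83 form a band of cells well above 0 in both origins, while most cells sit at 0 for Cd274, Pdcd1lg2, Cd200, Il4i1 and Socs2.

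Cd40 (chr2:165055627-165072948, + strand, GRCm38) encodes the TNF family receptor through which CD40 ligand on T cells activates dendritic cells. Its level ran from 0 to 3516 CPM per moLC, with a median of 808 CPM, and from 0 to 2759 CPM per eLC, with a median of 817 CPM. The sums of 903 CPM for moLCs and 929 CPM for eLCs gave a log2 ratio of -0.04, with -0.05 in plate 1 and -0.07 in plate 2. The origins were thus nearly level for Cd40, and the sign turned with edgeR's TMM factors (0.06). A read was found in 98.1% of moLCs (95% interval 93.2 to 99.8) and 94.9% of eLCs (87.5 to 98.6).

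Both B7 ligand genes lie on chromosome 16. Cd86 (chr16:36603869-36666081, - strand), the B7 ligand that resting dendritic cells already carry, had a median of 1444 CPM per moLC, between 0 and 4781 CPM, and of 1653 CPM per eLC, between 139 and 4437 CPM. Its sums were 1537 CPM for moLCs and 1869.6 CPM for eLCs, with a log2 ratio of -0.28. The ratio was -0.40 in plate 1 and -0.12 in plate 2. Cd86 was the only one of the 10 genes lower in moLCs in all cells, in both plates and under all 9 alternative settings of scaling and cells. The single moLC with no Cd86 read was the cell in well B06.

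Cd80 (chr16:38455561-38496335, + strand), the B7 ligand that binds CD28 and CTLA-4 more tightly, had reads in 34% of moLCs, with an interval of 24.9 to 44, and in 40.5% of eLCs, with one of 29.6 to 52.1. Its median over cells was 0 CPM in both. The highest cells had 746 CPM among moLCs and 250 CPM among eLCs. Summed levels were 39.6 and 29.2 CPM, a log2 ratio of 0.44. Share and sum therefore pointed in opposite directions, and the sum leaned on few cells. The moLC in well G04 of plate 1 held 24.7% of all Cd80 reads of moLCs, and without it the ratio was 0.05 in all cells and -0.32 in plate 1.

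Cd83 (chr13:43784775-43803132, + strand) encodes a maturation marker that holds MHC class II and CD86 at the cell surface. It had the highest level of the 10 genes per kilobase in both origins. The median was 5032 CPM per moLC, between 0 and 21855 CPM, and 4301 CPM per eLC, between 0 and 21751 CPM. Summed levels of 5785 and 5064 CPM gave a log2 ratio of 0.19, with 0.37 in plate 1 and 0.02 in plate 2. Reads of Cd83 were found in 98.1% of the moLCs and 97.5% of the eLCs.

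The genes of the PD-1 ligands are neighbours on chromosome 19, with Cd274 (PD-L1, chr19:29367455-29388095, + strand) ending 22823 bases before Pdcd1lg2 (PD-L2, chr19:29410919-29471161, + strand) begins. The 250 bases before the RefSeq start of each gene are shown because these neighbours were often read in the same cells, as given further on. They are joined by the same stretch of Icam1, which is induced by inflammatory cytokines, and of Il4i1, the 1 member that passes the rule of size given further on. All are RefSeq sequences of GRCm38.p6, read on the gene's own strand. The RefSeq start of Il4i1, like that of Cd80, lies inside the longer span that GENCODE gives the gene, so this stretch precedes a start within the span and not its first base. Matches on either strand to the NF-kB consensus or to the STAT motif TTCNNNGAA are in capitals. The NF-kB consensus searched begins with GGG and ends with CC, so sites that depart from these letters are not marked.
Cd274, chr19:29367188-29367437, + strand: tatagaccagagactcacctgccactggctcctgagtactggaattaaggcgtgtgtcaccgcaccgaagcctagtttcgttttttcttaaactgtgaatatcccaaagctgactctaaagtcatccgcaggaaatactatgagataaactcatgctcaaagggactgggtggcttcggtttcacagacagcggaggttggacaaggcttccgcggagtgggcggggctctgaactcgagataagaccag
Pdcd1lg2, chr19:29410669-29410918, + strand: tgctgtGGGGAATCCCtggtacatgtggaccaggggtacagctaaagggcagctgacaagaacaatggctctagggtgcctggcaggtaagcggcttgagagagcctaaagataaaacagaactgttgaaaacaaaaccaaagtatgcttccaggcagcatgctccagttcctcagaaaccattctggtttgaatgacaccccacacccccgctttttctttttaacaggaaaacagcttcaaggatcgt
Icam1, chr9:21015690-21015939, + strand: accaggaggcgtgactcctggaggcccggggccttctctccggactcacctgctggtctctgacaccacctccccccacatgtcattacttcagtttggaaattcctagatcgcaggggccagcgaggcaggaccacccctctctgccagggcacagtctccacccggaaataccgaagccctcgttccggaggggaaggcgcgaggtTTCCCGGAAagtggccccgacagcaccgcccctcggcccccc
Il4i1, chr7:44836038-44836287, + strand: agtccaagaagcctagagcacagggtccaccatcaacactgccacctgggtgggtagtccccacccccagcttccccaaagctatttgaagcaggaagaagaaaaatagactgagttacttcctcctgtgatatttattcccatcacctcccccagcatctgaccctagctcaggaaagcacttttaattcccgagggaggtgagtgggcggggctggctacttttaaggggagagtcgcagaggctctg
The table of promoters held 6 of the 10 genes, and Cd80 and Cd200 were searched as well. The NF-kB consensus matched once, in Pdcd1lg2 at bases -244 to -235 from the start (GGGGAATCCC), and 7.25% of 32851 promoters of the same length hold a match. The STAT motif matched once, in Icam1 at bases -42 to -34 (TTCCCGGAA), against 7.02% of promoters. The interferon motif GAAANNGAAA, held by 2.98% of promoters, matched none of the 6. A match is a run of letters only, and binding was not measured.

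Cd274 was read in 10 moLCs, 9.71% (4.75 to 17.1), and in 2 eLCs, 2.53% (0.308 to 8.85). All 10 moLCs were on plate 1 and both eLCs on plate 2. The moLCs held 1134, 796, 462, 321, 270, 268, 246, 182, 150 and 74 reads, while the eLCs held 312 and 2 reads. Of the 10 moLCs, 5 stood in row D of plate 1, which held 10 moLCs in all. The sums were 13 CPM for moLCs and 1.44 CPM for eLCs, with a log2 ratio of 3.17, but the direction was opposite on the 2 plates. On plate 1, where 14.9% of 67 moLCs and 0 of 29 eLCs had a read, moLCs were at 19.9 CPM. The ratio of counted reads was 584-fold (log2 9.19) with 3 reads over the group set for eLCs, and at least 8.89 in log2 by the counting interval. This bound, like that of plate 2, covers the counting of reads and not the sampling of cells, as a moLC with Cd274 held 74 reads or more. On plate 2, 0 of 36 moLCs and 2 of 50 eLCs had a read. The log2 ratio there was -6.39 with 3 reads set for moLCs, and at most -6.09 by the counting interval. Without the eLC in well F02 both origins there were under 3 reads, and no ratio can be given. A count of 0 allows shares of up to 10.3% on plate 1 and 8.33% on plate 2 by the limit of 3 cells of the total, and the exact intervals drawn in the plot of shares reach 11.9% and 9.74%. With the 3 plate 2 moLCs left out for mitochondrial reads put back, the plate 2 ratio was -1.05.

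Pdcd1lg2 was read in 10 moLCs, 9.71%, and in 4 eLCs, 5.06% (1.40 to 12.5), on both plates in both origins. On plate 1 the 6 moLCs held 1578, 1163, 444, 316, 220 and 208 reads and the 2 eLCs held 166 and 28. On plate 2 the 4 moLCs held 614, 288, 250 and 92 reads and the 2 eLCs held 478 and 22. The sums of 17.2 CPM for moLCs and 3.19 CPM for eLCs gave a log2 ratio of 2.43, with 3.18 in plate 1 and 1.63 in plate 2. Wells B06 and A02 held the most reads. Without the 3 moLCs of low LC marker sum the ratio was 1.38, with 1.49 and 1.67 in the plates, and that of Cd274 was 2.45. Without the moLC in well C03 of plate 2 the ratio of Pdcd1lg2 in plate 2 was 0.71.

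Cd200 (chr16:45382135-45409053, - strand), whose product signals to the inhibitory receptor CD200R on myeloid cells, was read in 5 moLCs, 4.85% (1.59 to 11), and 2 eLCs, 2.53% (0.308 to 8.85). The moLCs held 402, 52, 38, 24 and 8 reads and the eLCs 48 and 18 reads. Summed levels were 1.74 and 0.303 CPM, a log2 ratio of 2.53, with 1.51 in plate 1 and 3.41 in plate 2. The moLC in well H04 of plate 2 held 76.7% of the reads of its origin, and without it the ratio was 0.44 in all cells and -2.23 in plate 2. With the 3 moLCs left out for mitochondrial reads put back, it was 3.81 in all cells.

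Icam1 (chr9:21015985-21028817, + strand), the adhesion ligand of LFA-1, had reads in 56.3% of moLCs, with an interval of 46.2 to 66.1, and in 57% of eLCs, with one of 45.3 to 68.1. Its median was 82.7 CPM per moLC, with cells from 0 to 2923 CPM, and 59.9 CPM per eLC, with cells from 0 to 1770.3 CPM. The share of cells was thus the same to within 1 point, while the summed level was 377 CPM in moLCs and 180.04 CPM in eLCs. The log2 ratio was 1.07, with 1.14 in plate 1 and 0.78 in plate 2. Among cells with a read the median was 405 CPM in moLCs and 169 CPM in eLCs. Leaving out any of 4 cells brought the ratio in all cells under 1, to 0.94 at the lowest, without the moLC in well D10 of plate 1.

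Il4i1 (chr7:44816387-44840809, + strand) encodes a secreted oxidase of aromatic amino acids that dampens T cell proliferation. It was read in 32 moLCs, 31.1% (22.3 to 40.9), and 15 eLCs, 19% (11 to 29.4). The median over cells was 0 CPM in both origins, and the highest cells had 6816 CPM among moLCs and 1894 CPM among eLCs. The sums of 312 CPM for moLCs and 85.8 CPM for eLCs gave a log2 ratio of 1.86, with 1.13 in plate 1 and 2.71 in plate 2. The level was higher in moLCs in all cells and in both plates, but the size in plate 1 rested on 2 moLCs. Well G04 held 26893 of the 58612 Il4i1 reads of moLCs on plate 1, and without it the plate 1 ratio was 0.27. Without well A12 (11488 reads) it was 0.83. Of the merged exon length of Il4i1, 83.9% is also annotated as exon of Tbc1d17 on the other strand, and smaller stretches as exon of Nup62 and Atf5. The kit does not mark strand, so reads of Il4i1 and Tbc1d17 cannot be told apart there. Tbc1d17 itself was at 56.3 CPM in moLCs and 51.6 CPM in eLCs. Of its 74 cells with a read, 20 also had Il4i1 reads, beside 47 of all 182 kept cells. Nup62, on the same strand as Il4i1, is not among the genes listed in the counts, so its level could not be given. How many Il4i1 reads come from the shared stretches was not tested. Cd274 and Icam1 likewise share 14.1% and 11.7% of their exon length with antisense genes, and A930007I19Rik, which lies opposite Pdcd1lg2 without sharing exon bases, had reads in 2 cells.

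Socs2 (chr10:95385362-95417180, - strand), a feedback inhibitor of cytokine receptor signalling, had reads in 23.3% of moLCs, with an interval of 15.5 to 32.7, and in 17.7% of eLCs, with one of 10 to 27.9. The highest cells had 647 CPM among moLCs, in well B06, and 226 CPM among eLCs. Summed levels were 26.6 and 8.86 CPM, a log2 ratio of 1.58, with 1.51 in plate 1 and 1.66 in plate 2. The plates were close to each other for Socs2. The ratio was 1.24 without the 3 moLCs of low LC marker sum, with 0.90 in plate 1, and 0.68 in plate 2 without the moLC in well A02 of that plate.

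**Figure D2:**
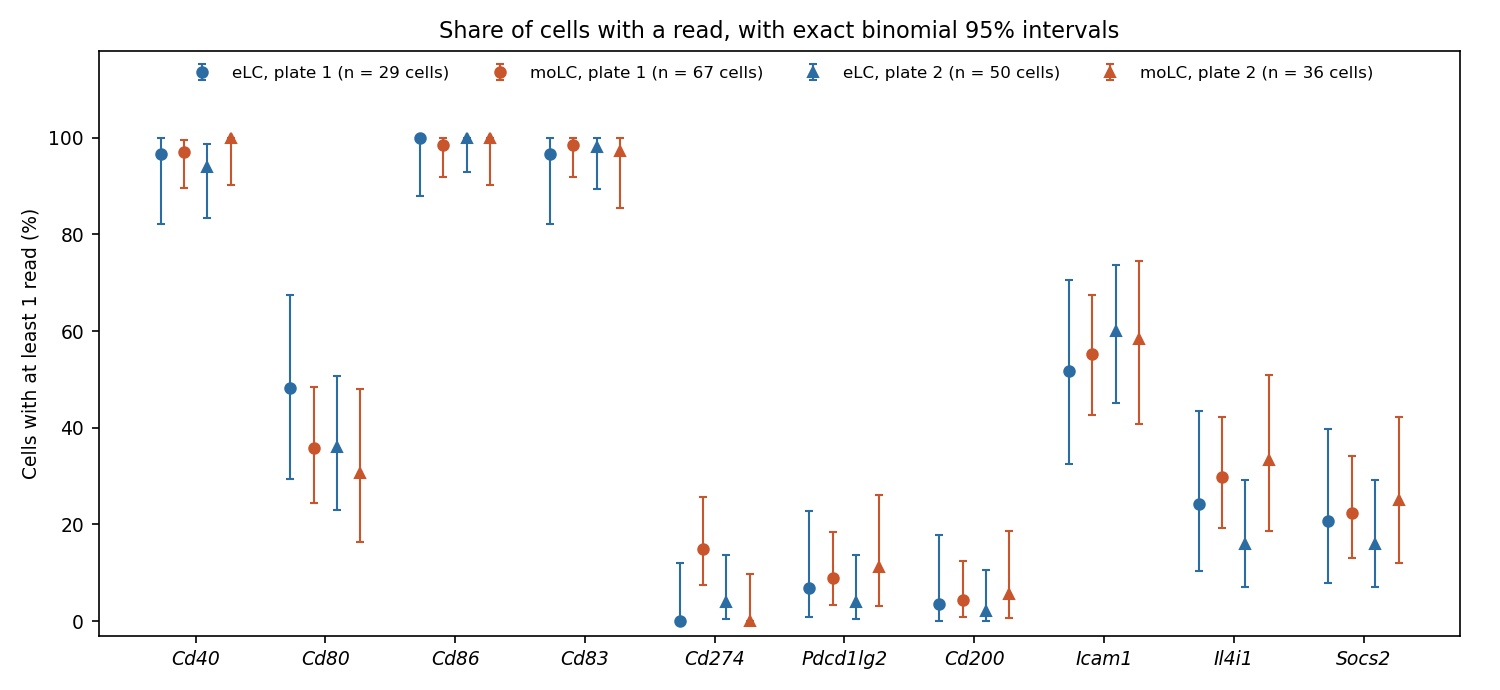
Points are the share of cells with at least 1 read of each gene, in percent, for eLCs (blue) and moLCs (orange) on plate 1 (circles) and plate 2 (triangles); bars are exact binomial 95% intervals. The intervals of the 2 origins overlap on each plate for every gene.

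To read these ratios against the rest of the genes, a rule of size was applied that is not a test: reads in 25% or more of either origin's cells, and sums 2-fold or more apart, with the same origin higher on plate 1, on plate 2 and with the plates pooled. Of 6522 genes read that often, 132 (2.02%) passed it and 53 (0.813%) did so with the higher level in moLCs. Of the 6 members read that often (Cd40, Cd80, Cd86, Cd83, Icam1 and Il4i1), 1 passed, Il4i1, higher in moLCs. It no longer passed without the moLC in well G04 or that in well A12, or when each cell was thinned to 2052512 reads (0.85 in plate 1). In all cells pooled, 2 of the 6, Icam1 and Il4i1, were at least 2-fold higher in moLCs, as were 2.09% of genes. The median log2 ratio of the 6 members was 0.32 (0.30 and 0.19 in the plates), beside -0.10 (-0.07 and -0.09) for the 6522 genes.

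The other 4 members, Cd274, Pdcd1lg2, Cd200 and Socs2, were read in under 25% of the cells of both origins. All 4 were at least 2-fold higher in moLCs in pooled cells, as were 18.9% of the 6023 genes that were as rarely read but had a read in at least 5 cells. For Pdcd1lg2, Cd200 and Socs2 this held within both plates too, against 7.65% of these genes. Leaving out 1 moLC brought Pdcd1lg2 and Socs2 under 2-fold on plate 2 only, to 0.71 and 0.68, while in all cells their lowest values were 1.92 and 1.31. Cd200 came under 2-fold in all cells as well, at 0.44.

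**Figure D3:**
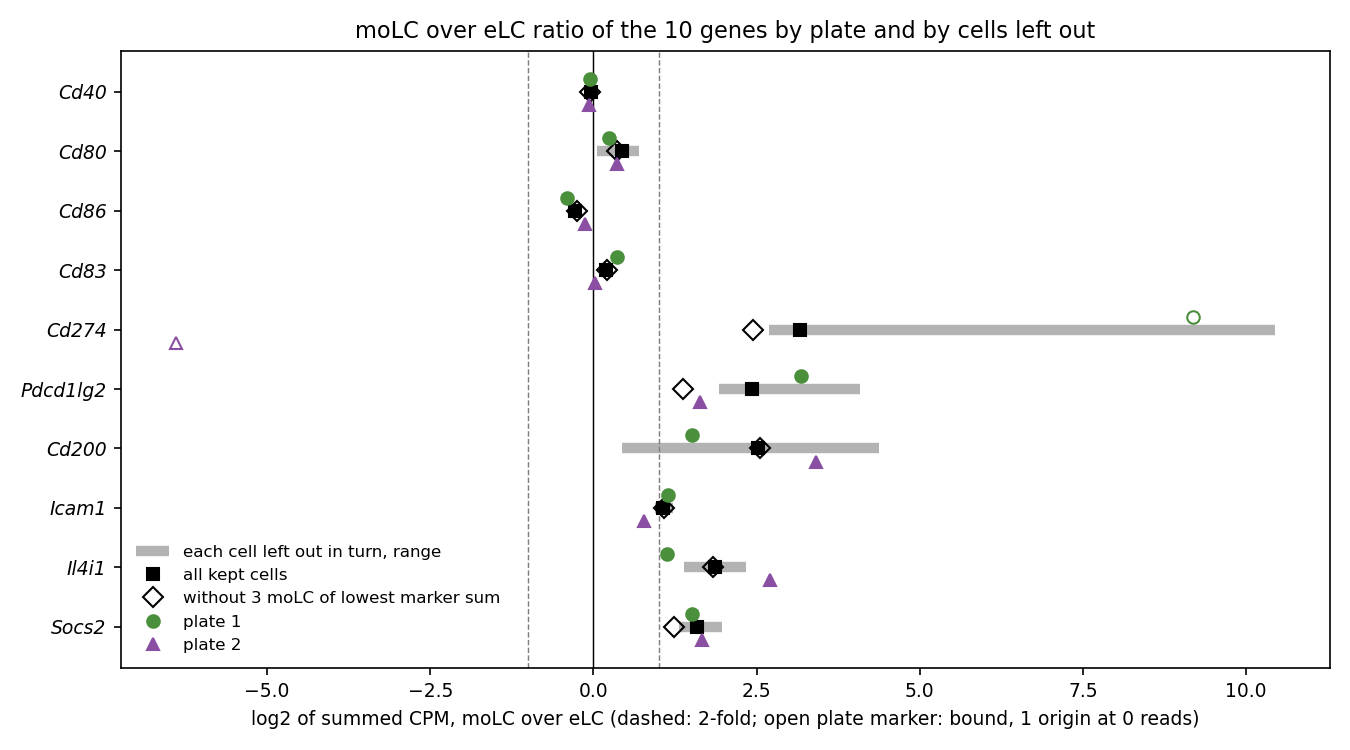
The horizontal axis is the log2 ratio of summed CPM, moLCs over eLCs, and each row is a gene; black squares are all kept cells, green circles plate 1, purple triangles plate 2, open diamonds the cells without the 3 moLCs of low LC marker sum, and grey bars the range when each cell is left out in turn. Open plate markers are bounds with 3 reads set for the 1 origin at 0 reads. Cd40, Cd80, Cd86 and Cd83 lie within 2-fold, Icam1 and Il4i1 at 1.07 and 1.86, and Cd274 on opposite sides in the plates.

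The number of the 10 genes read in a cell ran from 1 to 9 in moLCs, with a median of 4 and a mean of 4.64 ± 1.49 (SD over the cells), and from 2 to 7 in eLCs, with a median of 4 and a mean of 4.37 ± 1.16. The means were 4.66 and 4.48 in plate 1 and 4.61 and 4.30 in plate 2. At equal depth they were 4.58 and 4.42. At the upper end, 11 moLCs (10.7%) and 2 eLCs (2.53%) had reads of 7 or more of the genes, and 9 of the 11 moLCs were on plate 1. Without the 3 moLCs of low LC marker sum, 9 of 100 moLCs had 7 or more. The number of genes read in all was as high as 6690 and as low as 3703 among these 13 cells, with a median of 4642 against 4181 in the other 169. Within the 4 sets of origin and plate, the number of members read had a Spearman correlation with the number of genes read between 0.05 (eLCs of plate 1, 29 cells) and 0.37 (moLCs of plate 2, 36 cells), and with the number of reads between -0.14 and 0.26.

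**Figure D4:**
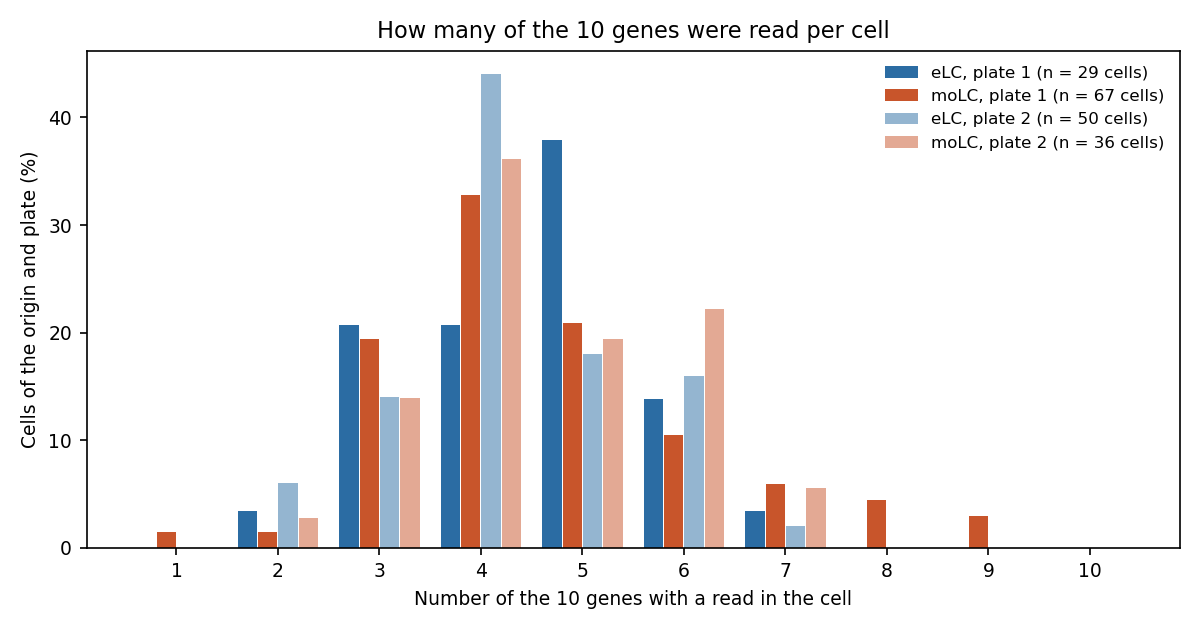
Bars give the share of cells, in percent, by the number of the 10 genes with a read, for eLCs (blue) and moLCs (orange), dark for plate 1 and pale for plate 2. Cells with 8 or 9 genes occur only among the moLCs of plate 1.

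The cells with the most members were examined singly. The 2 cells with 9 of the 10 genes were moLCs of plate 1, wells A02 and D05, and both lacked Cd200 alone. Well D05 had 444 reads of Pdcd1lg2, 74 of Cd274, 2504 of Il4i1 and 70 of Socs2 among 1025266 reads. It also had 7672 reads of Ccl22, a chemokine of mature dendritic cells, and 1810 of Ccr7, the receptor that guides them to lymph nodes. Its Cd207 (6390 CPM), Epcam (148 CPM) and Csf1r (237 CPM) were lower than in pooled moLCs (26237, 756 and 858 CPM). Itgax had no read in it, while its H2-Aa, Cd74 and Mfge8 were higher than in pooled moLCs. Well B06, with 8 of the genes, had 88680 reads of Ccl22, 19719 of Ccr7 and 1980 of Fscn1, an actin bundler of mature dendritic cells, and it held the highest Pdcd1lg2 level, 768 CPM. Well G04 of plate 1, the moLC with the most reads of Cd40, Cd80, Cd86 and Il4i1, had 29574 reads of Ccr7 and 33250 of Ccl22 but no read of Cd274, Pdcd1lg2, Cd200, Socs2 or Fscn1. The leading eLC for both Cd274 (312 reads) and Pdcd1lg2 (478 reads), well F02 of plate 2, had neither Ccr7 nor Ccl22 reads. Relb, a subunit of NF-kB, was read in every leading cell, as in 95.1% of moLCs and 100% of eLCs in all.

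Ccr7 was read in 40 moLCs and 31 eLCs. A mean of 5.25 members was read in moLCs with Ccr7 and 4.25 in those without, and of 4.61 and 4.21 in eLCs. The median number of genes read was 4118.5 and 3975 in these moLCs (3974.5 and 4166 on plate 1, 4404 and 3920 on plate 2). In eLCs it was 4488 and 4469.5. Cd80 was read in 45% of moLCs with Ccr7 and 27% of those without, and in 54.8% and 31.2% of eLCs. For Icam1 these shares were 70% and 47.6% in moLCs and 61.3% and 54.2% in eLCs. In moLCs both genes were read more often with Ccr7 on each plate. In eLCs the plates differed. Icam1 was read in 33.3% of eLCs with Ccr7 and 64.7% of those without on plate 1, but in 78.9% and 48.4% on plate 2. Cd80 was read in 50% and 47.1% of these eLCs on plate 1 and in 57.9% and 22.6% on plate 2. Il4i1 was read in 20 of the 40 moLCs with Ccr7 (50%, 33.8 to 66.2) and 12 of the 63 others (19%, 10.2 to 30.9). Pdcd1lg2 was read in 8 and 2 of these (20%, 9.05 to 35.6, and 3.17%, 0.387 to 11). The 8 include wells B06 and A02, of low LC marker sum, and well C01 of plate 1, which had only 4 reads of Ccr7. These wells are also among the 20 with Il4i1. Cd200 went the other way in moLCs, with 1 of the 40 and 4 of the 63. In eLCs, Pdcd1lg2 was read in 1 of 31 with Ccr7 and 3 of 48 without, Socs2 in 4 and 10 of these, and Il4i1 in 8 and 7. Among eLCs the mean was higher with Ccr7 on plate 2 (4.74 against 4.03) and not on plate 1 (4.42 against 4.53).

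Of the pairs of members, the PD-1 ligands had the highest ratio of cells with both genes to the product of their shares. Cd40, Cd86 and Cd83 were left out of this count because nearly every cell had them. Among the 21 pairs of the other 7 genes, 19 were read together in more cells than the product of their shares gives, with a median ratio of 1.49. Some were barely above it, such as Cd200 with Icam1 (4 cells against 3.94) and Cd200 with Il4i1 (2 against 1.96), and pairs of other genes were not counted, so nothing particular to these genes is read from the 19. Cd274 (12 cells) and Pdcd1lg2 (14 cells) shared 7 cells where the product gives 0.976, a ratio of 7.18. Of these, 5 were moLCs of plate 1, where 10 and 6 cells had the genes and the product gives 0.896, and both eLCs with Cd274 had Pdcd1lg2 too. On plate 2, none of the 4 moLCs with Pdcd1lg2 had Cd274. Without the 3 moLCs of low LC marker sum, 3 moLCs and the 2 eLCs had both genes. Cd80 was read in 11 of the 14 cells with Pdcd1lg2 (78.6%) and in 33.3% of the others. Il4i1 was read in 9 of the 14 (64.3%) and in 22.6% of the others. Cd80 and Il4i1 shared 27 cells where the product gives 17.1, a ratio of 1.58. In number of cells, this pair lay further above the product than the PD-1 ligands did. Icam1 and Il4i1, in contrast, shared 27 cells where the product gives 26.5, and Cd274 and Cd200 shared none. These are counts over cells of 1 sample an origin, and depth and plate are shared by all genes of a cell.

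**Figure D5:**
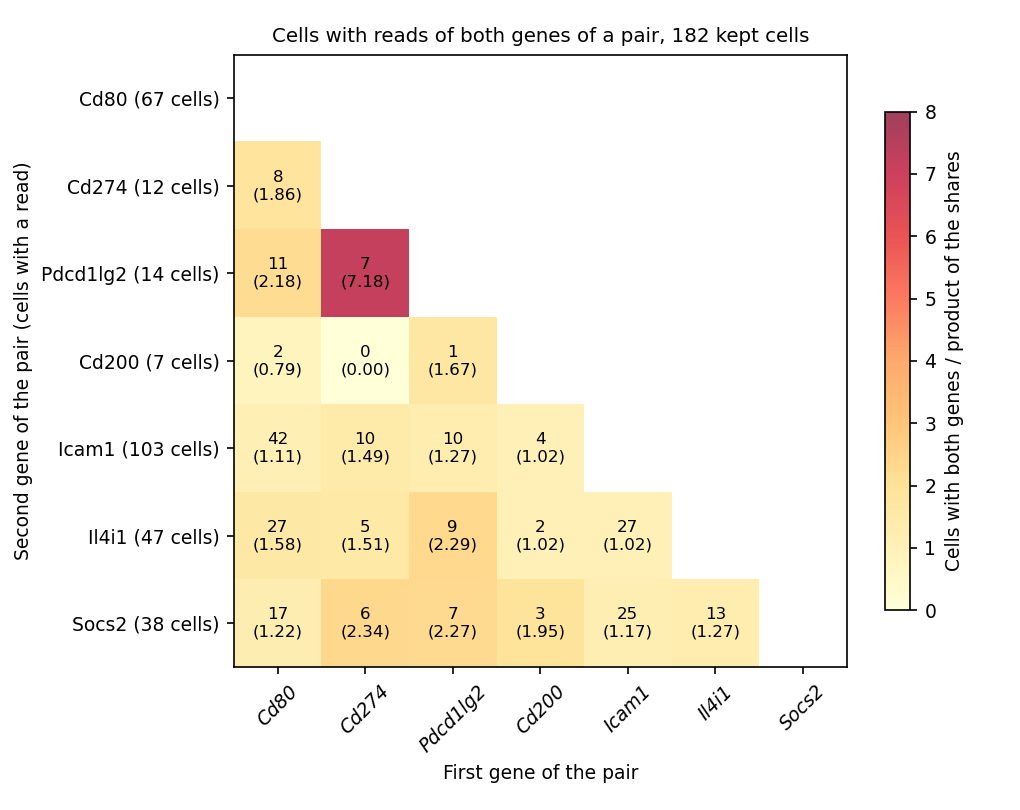
Each square gives the number of the 182 kept cells with reads of both genes of a pair and, in brackets, that number divided by the product of the shares, which also sets the colour. Cd274 with Pdcd1lg2 has the highest ratio, 7.18, at 7 cells.

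For the 6 members read often enough, the genes of most similar level were found by the mean of the Spearman correlations of CPM within the 4 sets of origin and plate (182 cells, 6522 genes). Cd83 went most with Tnfaip3 (0.44), Dapp1 (0.41) and Maff (0.39), and Icam1 with Tnip1 (0.37), Nfkbia (0.34) and Bcl3 (0.33). Tnfaip3, Tnip1 and Nfkbia are inhibitors of NF-kB and Bcl3 is an IkB family member. Cd86 went most with Tmem123 (0.42), Antxr2 (0.41) and Tbc1d4 (0.39), and Cd40 with Ifi211 (0.34), H2-Q7 (0.33) and Ehd1 (0.33). Il4i1 went most with Bcl2a1a (0.42), Stat5a (0.40) and Bcl2a1d (0.38), and Cd80 with Bcl2a1d (0.37), Bcl2a1c (0.35) and Serpinb9b (0.34). The Bcl2a1 genes are near-identical copies, so reads may be split among them, and H2-Q7 too has close relatives. The highest 1% of genes lay above values between 0.21 (Cd40) and 0.26 (Cd83). Members went less with each other, at most 0.28 (Cd40 with Cd83), and no member was among another's 3. Even so, Cd83 with Cd40, with Cd86 (0.28) and with Icam1 (0.28), and Cd40 with Icam1 (0.23), lay above the 1% value of both genes. The other pairs of members lay below it, down to -0.03 (Cd86 with Icam1). Cells of a set share depth, dropout and plate, and these values carry no test.

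Genes of the same pathways were taken from 7 lists. Of 10 other ligands of T cell costimulation, 7 had reads, 2 were read in 25% or more of either origin's cells and none passed the rule of size. The 2 were Cd24a, at 193 CPM in moLCs and 230.4 CPM in eLCs, whose product is part of the sort gate, and Cd48, an adhesion ligand, at 60 and 51.6 CPM. The OX40 and CD27 ligand genes Tnfsf4 and Cd70 had no read. Of 17 other genes listed for T cell inhibition, which are ligands, enzymes and some receptors, 13 had reads, 3 were read that often and none passed. Havcr2 (TIM-3), a receptor, stood highest, at 1441 and 1316 CPM and read in 98.1% and 100% of cells. It was followed by Pvr, a ligand of TIGIT, at 167 and 149 CPM.

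Of 14 genes of CD40 signalling all had reads, 12 were read that often and none passed, with a median log2 ratio of 0.12. Traf1, an adaptor of TNF receptors, was at 477 CPM in moLCs and 465 CPM in eLCs, and Relb at 487 and 425 CPM. Of 18 genes of the mature migratory dendritic cell programme, which shares Relb and Birc3 with the former list, 17 had reads, 9 were read that often and none passed (median 0.01). Cd63, a tetraspanin of late endosomes, was at 1260.0 CPM in moLCs and 1344 CPM in eLCs. Ccr7 was at 862 and 444 CPM, a log2 ratio of 0.96, but of 1.49 in plate 1 and -0.48 in plate 2.

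In the family of Socs2, all 7 other genes had reads, 4 were read that often and 1 passed. Socs3, a feedback inhibitor of STAT3 signalling, had reads in 60.2% of the moLCs and 35.4% of the eLCs, at 107 and 48.3 CPM, with log2 ratios of 1.14 in all cells, 2.04 in plate 1 and 1.09 in plate 2. Socs1, which restrains interferon signalling, was level at 119 and 113 CPM. Of 7 genes of the ICAM family and the integrins of the LFA-1 kind, 6 had reads, 3 were read that often and none passed. Itgb2, the beta chain of LFA-1, was at 141 and 145 CPM and Itgax at 114 and 112 CPM. Of 9 receptors and markers on the T cell side, 4 had reads and none was read that often. The highest were Cd28, at 0.962 CPM in moLCs with no read in eLCs, and Icos, at 0.233 and 0.395 CPM.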

How the data were processed

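LCs were sorted singly from BMC, and libraries made with the Takara Smart-Seq kit, which does not mark strand, were sequenced paired-end. The authors aligned with STAR to mm10, and the counts of reads per gene and cell they deposited are not normalized. The counting tool and annotation are not given in the sources used here. There are no molecular identifiers, so PCR copies count as reads, and 82.9% of deposited counts above 0 are even. In 8 cells, 9 values were deposited by the authors as fractions, for a reason the sources used here do not give, and were treated like expected counts and rounded.

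The 10 genes, the related lists and the rules were chosen with earlier results of these data known. Cells were grouped by labelled origin and plate, and cells with over 5% mitochondrial reads were left out. Reads were summed by origin and divided by all reads (CPM). Where no read was found in an origin, 3 reads over the whole group were assumed. Intervals at 95% are exact Poisson for sums, Clopper-Pearson for shares and binomial for ratios, and cover counting error only, not animals. The study's Wilcoxon test on cells was not repeated. Cells were also thinned to 2052512 reads, the 10th percentile, which left 96 moLCs and 67 eLCs. Doublets were not searched for. Cells were sorted singly into wells, and that each well held a single cell was not tested. Named genes are the 10 members, per list those past the rule of size and the 2 with the most reads, per member the 3 of most similar level, Ccr7, Ccl22, Fscn1 and Relb in leading cells, and overlapping genes. Tnfsf4, Cd70 and the shared genes of lists were named after their values were seen. So were the cells of low LC marker sum, the markers given for well A02, and cells with 7 or more members. Coordinates and exon lengths are from GENCODE M21 (GRCm38) and promoters from RefSeq (GRCm38.p6). Python 3.11.15 with numpy 2.4.6, pandas 2.3.3, scipy 1.17.1 and matplotlib 3.10.9 was used, and edgeR 4.0.16 in R 4.3.3 for TMM factors. The calculations were tested on simulated data.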

Additional observations from a re-analysis of the deposited data

Results flagged for a closer look

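The 3 moLCs left out for mitochondrial reads, all on plate 2, are outside every comparison above, and 7 of the 10 genes had reads in them. Pooled over their 1726576 reads, Cd83 was at 2072 CPM, Cd86 at 717 CPM, Cd200 at 441 CPM, Pdcd1lg2 at 268 CPM, Cd40 at 176 CPM, Cd274 at 71.8 CPM and Il4i1 at 51 CPM, while Cd80, Icam1 and Socs2 had none. Cd274 was read in all 3 of them (124 reads), although in none of the 36 moLCs kept on plate 2. Cd200 had 762 reads in 1 of them, more than the 524 reads of all moLCs kept.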

How the results depend on the processing

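By the rule of size, 1 of the 10 genes (Il4i1), 1 gene of the related lists (Socs3) and 132 of all genes passed, 53 higher in moLCs and 79 higher in eLCs. On plate 1 alone 2 members (Icam1, Il4i1), 7 list genes and 802 genes (352 and 450) passed, and on plate 2 alone 2 members (Il4i1, Socs2), 2 list genes and 849 genes (328 and 521), since a single plate need not match the other. With reads in 10% of cells enough, 2 members (Il4i1, Socs2) and 479 genes (190 and 289) passed, and with 50% asked for, 0 members and 23 genes (11 and 12). At 1.5-fold 2 members (Icam1, Il4i1) and 501 genes (180 and 321) passed, and at 3-fold 0 members and 32 genes (14 and 18). At these folds the base stayed at 6 members and 6522 genes read often enough. For a single plate or another share of cells the base differs (Socs2 enters it on plate 2 alone) and is not given here. Those member counts therefore cannot be set against a share of all genes and are not read as a result about the members. Thinned to equal depth, 0 members passed. TMM factors raised every log2 ratio over all cells by 0.10, which gave 133 genes split 71 and 62. Without the 3 moLCs of low LC marker sum, chosen after seeing the data, 134 genes passed (47 and 87). Over the 9 alternative settings of scaling and cells, every member kept its direction except Cd40, in 6 of 9, and Cd274, reversed on plate 2. The mean number of members read per cell lay between 4.58 and 4.66 in moLCs and between 4.2 and 4.48 in eLCs under the alternatives. With the 3 cells of high mitochondrial share put back, the ratio of Cd274 on plate 2 was -1.05 and that of Cd200 in all cells 3.81. Leaving out each cell in turn, the ratio ran from 0.05 to 0.70 for Cd80, 2.69 to 10.44 for Cd274, 1.92 to 4.09 for Pdcd1lg2, 0.44 to 4.38 for Cd200, 1.39 to 2.35 for Il4i1 and 1.31 to 1.97 for Socs2. No paired analysis was possible because the labels name no animal, so eLCs and moLCs of the same chimera cannot be matched. No test was run.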
